A study of Mus musculus with 25 samples.

Results

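The cells described here are pop3, the Tim4-, CD11c-, MHCII high macrophages of mouse white adipose tissue, set against blood monocytes. The libraries were chosen by their labels alone. Pop3 comprised 4 of the 25 libraries of the study and monocytes 9. All mice were C57BL6, and the labels name no mutant allele, age or sex. Mice ate a high fat diet (HFD, 45% of the diet as fat in the labels) or a control diet (CD, 10%). Pop3 had the libraries HFD 2, HFD 3, CD-CD 7 and CD-CD 8. Monocytes had 3 HFD libraries and 6 CD libraries, of which 3 were titled CD and 3 CD-CD. The 4 libraries of pop2, the Tim4+, MHCII high macrophages of the same tissue and diets, served as the resident comparison. Levels in pop1 (Tim4+, MHCII low) and pop4 (Tim4-, CD11c+, MHCII+), with 4 libraries each, are given where they help. Each library came from 200 sorted cells. Adipose cells (eWAT in the sample names) were freed by collagenase digestion with flavopiridol added, which blocks transcription. Blood was drawn from the heart into EDTA, its red cells were lysed, and monocytes were sorted on CD115 and Ly6C. Tissue, gate and handling therefore differed together between pop3 and monocytes and cannot be told apart. In pop3 the diet also coincided with the title series.

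Blood monocytes are short-lived myeloid cells that enter tissues through chemokine receptors such as Ccr2 and through adhesion molecules, and they can become macrophages there. The Ly6C high, classical monocyte is known for Ccr2, Ly6c2 and granule proteins. Macrophages that stay in a tissue for long are known for scavenger receptors, complement C1q, growth factors and, in adipose tissue, for Lyve1, Folr2 and Timd4. A Tim4-, MHCII high macrophage is commonly regarded as closer to its monocyte source than a Tim4+ one, which makes the genes on which pop3 resembles either neighbour of interest.

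Levels are deposited read counts scaled to the library total with TMM factors (CPM), and they compare libraries and not genes of unequal length. Totals were 5.07 to 8.52 M counts in pop3, 6.50 to 9.34 M in monocytes and 3.75 to 5.86 M in pop2. Values of pop3, and of pop2 where given singly, are in the order HFD 2, HFD 3, CD-CD 7, CD-CD 8, and those of monocytes are given as lowest to highest with the median (n = 9). The Pearson correlation of log2 CPM was 0.907 between the HFD pair and 0.895 between the CD pair of pop3, against 0.937 to 0.956 between monocyte libraries of a diet. No library was a copy of another. On the first principal component of all libraries, which held 32.2% of the variance, pop3 lay at -84.95 to -59.12, monocytes at 98.16 to 132 and pop2 at -123.2 to -90.66. Summed olfactory and vomeronasal receptor counts, used as a measure of background reads, were 194 to 658 CPM in pop3, 93 to 255 CPM in monocytes and 388 to 685 CPM in pop2. This background moved with the comparison. It was fitted as a covariate for pop3 against monocytes alone. Counts of that comparison that the covariate moved by over 1.5 times are given with it as well. The diet tests, the pop2 contrasts and the classes were not fitted with it. The labels do not say whether libraries came from separate animals, so p-values measure the spread between these libraries, which may be technical. All adjusted p-values come from the quasi-likelihood test of edgeR with Benjamini-Hochberg adjustment over all genes tested, diet as covariate and a threshold of 0.05.

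Pop3 held Ccr2 below monocytes and above pop2, had almost no Ly6c2 and had Lyve1 far above monocytes. Ccr2, the receptor for Ccl2 and Ccl7 (chr9:124102183-124109140, plus strand, mm10), had 1061, 1274, 927 and 1410.1 CPM in the pop3 libraries, against 1748 to 2395 CPM (median 2229.9) in monocytes. The groups did not overlap (log2 difference -0.88, SE 0.11, adjusted p = 8.26e-05). Pop2 averaged 349.9 ± 137 CPM of Ccr2 (SD, n = 4), and pop3 was above it in a fit that also held the monocytes (pop3 against pop2: log2 difference 1.76, SE 0.19, adjusted p = 0.000723), though not past the threshold with the pop3 and pop2 libraries alone (adjusted p = 0.0734). The means of pop1 and pop4 were 28.3 ± 45.7 CPM and 1519.6 ± 202 CPM. In a fit of all 25 libraries the difference of Ccr2 against monocytes had an adjusted p of 0.149. Ly6c2, a Ly6C gene and so part of the monocyte gate (chr15:75108161-75111949, minus strand), had 0.354, 1.14, 21.9 and 2.08 CPM in the pop3 libraries, against 434 to 673 CPM (median 485) in monocytes. Every pop3 library was far below every monocyte library (log2 difference -6.51, SE 0.62, adjusted p = 6.52e-05). Lyve1, a hyaluronan receptor of resident macrophages (chr7:110850607-110862953, minus strand), had 413, 470.0, 614 and 239.8 CPM in the pop3 libraries, against 0.116 to 1.15 CPM (median 0.623) in monocytes. All pop3 libraries held Lyve1 well above every monocyte library (log2 difference 9.68, SE 0.43, adjusted p = 2.35e-09), and pop2 averaged 705 ± 159 CPM, which was not separated from pop3 (log2 difference -0.68, interval -1.43 to 0.06, adjusted p = 0.545). In bulk libraries fewer cells with a gene's RNA and less of that RNA per cell cannot be told apart.

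The gate genes did not all follow the labels. Ly6c1, a second Ly6C gene, was called higher in pop3 than in monocytes, opposite to Ly6c2. Timd4, Itgax and H2-Ab1 followed the macrophage gates. Timd4, the gene of Tim4, had 0.118, 0.568, 0.533 and 11.9 CPM in pop3, against 88.8 to 563 CPM in pop2 (pop3 against pop2: log2 difference -6.96, SE 0.76, adjusted p = 0.00223). The library CD-CD 8 held most of the Timd4 reads of pop3. Itgax, the gene of CD11c, had 43.6, 24.6, 11.2 and 1.13 CPM in the pop3 libraries, against 0.172 to 23.3 CPM (median 7.52) in monocytes, and averaged 185 ± 5.05 CPM in the CD11c+ pop4 (SD, n = 4). The Itgax values of pop3 and monocytes overlapped (adjusted p = 0.672). H2-Ab1, a class II chain, had 925, 867, 851 and 926 CPM in the pop3 libraries, against 99 to 211 CPM (median 162) in monocytes. Its level rose, as the MHCII high gate asks (log2 difference 2.56, SE 0.21, adjusted p = 5.89e-07). Csf1r, the gene of CD115 and the M-CSF receptor on which monocytes were sorted, had 419, 454, 612 and 504 CPM in the pop3 libraries, against 384 to 507 CPM (median 456) in monocytes. Pop3 and monocytes overlapped in Csf1r, with an interval of the log2 difference of -0.12 to 0.38.

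**Figure D1:**
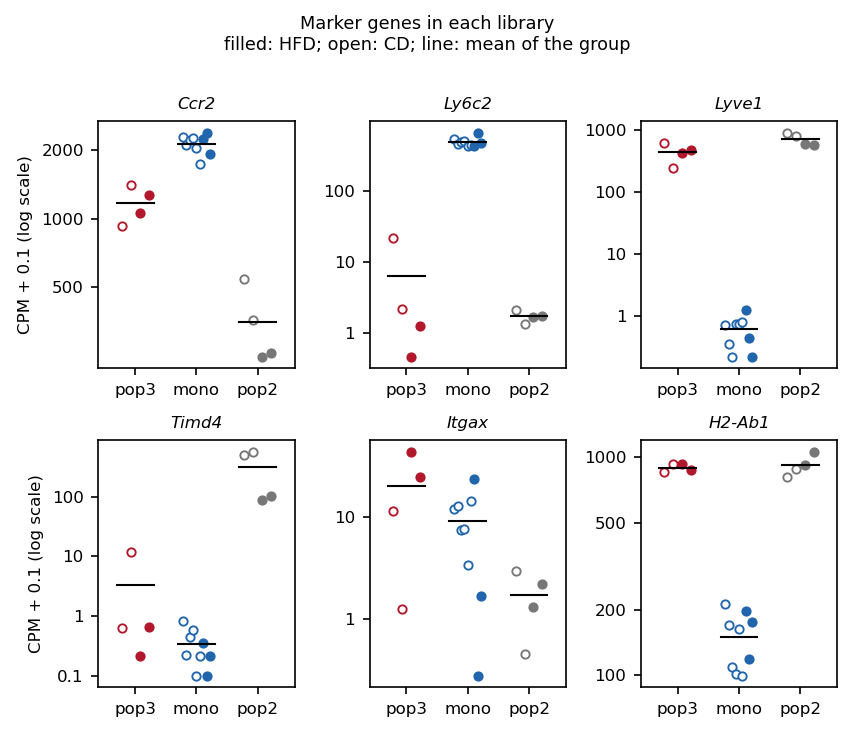
Levels of the markers and gate genes Ccr2, Ly6c2, Lyve1, Timd4, Itgax and H2-Ab1 by population (CPM plus 0.1, log scale). Each point is a library, filled for HFD and open for CD, and the line is the group mean. Ccr2 of pop3 lies between the monocyte and pop2 points, Ly6c2 of pop3 lies with the other macrophages, and Lyve1 of pop3 (239.8 to 614 CPM) lies near pop2 and above every monocyte point (at most 1.15 CPM).

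Of 12138 genes tested, 1272 rose (10.5%) and 1674 fell (13.8%) in pop3 relative to monocytes. The split depends on scaling, on the filter and on the libraries fitted. Of the called genes 43.2% were higher with TMM factors, 55.4% with RLE and 53% with upper-quartile factors. The median log2 difference of all genes was -0.08, 0.09 and 0.05 under these scalings. With TMM factors the share was 63.7% without a filter on low counts. It was 61.1% with the pop2 libraries added to the fit and 58.8% with all 25 libraries. DESeq2 gave 52.4%. Pop3 lay wholly above monocytes for 6.92% of the genes tested and wholly below for 9.1%. With the background level as a covariate 382 genes were higher and 622 lower.

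The largest gains with separate groups and at least 50 CPM in pop3 were secreted factors, endocytic adaptors and complement, together with genes known from adipocytes and stromal cells. Dab2, an adaptor of clathrin-mediated endocytosis, had 889, 1164, 1561 and 1500.3 CPM in the pop3 libraries, against 0.121 to 1.26 CPM (median 0.747) in monocytes (log2 difference 10.79, SE 0.30, adjusted p = 3.57e-11). Ccl7, a ligand of Ccr2, had 253, 318, 479.8 and 554 CPM in the pop3 libraries, against 0 to 0.516 CPM (median 0.128) in monocytes (log2 difference 10.89, SE 0.53, adjusted p = 1.91e-09). C1qa, a subunit of C1q in the complement system, had 489, 488, 456 and 397 CPM in the pop3 libraries, against 0 to 0.641 CPM (median 0.241) in monocytes (log2 difference 10.66, SE 0.43, adjusted p = 6.19e-10). For all of these the monocyte libraries were at or near 0, so that the fitted differences lean on very few monocyte reads. Cxcl12, the ligand of Cxcr4, had 42.3, 309, 313 and 236 CPM in the pop3 libraries, against 0 to 0.352 CPM (median 0.125) in monocytes, with HFD 2 well below the other pop3 libraries. Ccl11, the eosinophil chemokine eotaxin, had 25.4, 151, 308 and 77.7 CPM in the pop3 libraries, against 0 to 0.251 CPM (median 0) in monocytes. Tnfrsf17, a receptor best known from plasma cells, had 68.5, 53, 70.2 and 88.5 CPM in the pop3 libraries, against 0 to 0.249 CPM (median 0) in monocytes. Each of these levels rose in pop3 (adjusted p = 4.47e-08, 3.9e-07 and 6.27e-07 in that order). The remaining members of this set were Car3, a carbonic anhydrase abundant in adipocytes, with 300.1, 241, 70 and 167 CPM in the pop3 libraries, against 0 to 0.251 CPM (median 0) in monocytes, and Dcn, the stromal proteoglycan decorin, with 57, 417, 888 and 171 CPM in the pop3 libraries, against 0 to 0.877 CPM (median 0.249) in monocytes. Both rose too (adjusted p = 4.47e-08 and 4.03e-07), and summed adipocyte and stromal markers, given further on, were higher in pop3 as well.

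The deepest losses were of monocyte surface receptors and granule genes. Mmp8, a collagenase stored in granules, had 0.591, 0.341, 1.24 and 1.7 CPM in the pop3 libraries, against 520.0 to 933 CPM (median 714) in monocytes (log2 difference -9.59, SE 0.33, adjusted p = 6.19e-10). Gpr18, a G protein-coupled receptor of leukocytes, had 0.591, 0, 0.355 and 0.189 CPM in the pop3 libraries, against 236 to 363 CPM (median 314) in monocytes (log2 difference -10.02, SE 0.49, adjusted p = 2.19e-09). Mcemp1, a membrane protein of mast cells and myeloid cells, had 1.18, 0.455, 0.533 and 1.51 CPM in the pop3 libraries, against 344 to 469.5 CPM (median 370.4) in monocytes (log2 difference -8.67, SE 0.25, adjusted p = 2.51e-10). In these the lowest monocyte library stood far above the highest pop3 library. Ms4a4b, a membrane-spanning protein of the Ms4a family, had 0.236, 1.25, 0.533 and 0.566 CPM in the pop3 libraries, against 195 to 367 CPM (median 226) in monocytes (log2 difference -8.45, SE 0.35, adjusted p = 4.32e-09). The set also held Ly6i (0 to 0.355 CPM in pop3, against 95.1 to 181 CPM in monocytes), Klrb1f (0 to 0.827 CPM in pop3, against 94.7 to 316 CPM in monocytes), the granule protein gene Pglyrp1 (0 to 0.377 CPM in pop3, against 61.4 to 141 CPM in monocytes) and the receptor gene Trem3 (0 to 0.455 CPM in pop3, against 55 to 189.9 CPM in monocytes). All of them fell (adjusted p = 2.71e-08, 1.93e-07, 2.38e-07 and 7.83e-07 in that order). Ly6i and Klrb1f have near-identical relatives, and the sources do not say how reads with several matches were counted, so their values are uncertain.

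A gene was taken as monocyte-like in pop3 where the 95% interval of its difference against monocytes lay within -1 to 1 on the log2 scale and its difference against pop2 was past the threshold. A fit of the 17 pop3, pop2 and monocyte libraries gave 13733 tested genes, of which 28 were higher (0.204%) and 5 lower (0.0364%) in pop3 than in pop2. These calls depended on having the monocyte libraries in the fit. In a fit of the pop3 and pop2 libraries alone, added after the data had been seen, edgeR called none of 11511 genes in either direction (lowest adjusted p 0.0734), with 524 higher and 329 lower at an unadjusted p under 0.05, so no call between pop3 and pop2 given here was made in it. Of the 33 genes called with monocytes in the fit, 6 were monocyte-like (0.0437% of the genes tested). Because the class is cut from these same levels, its members are described and not tested further. Alcam, an adhesion molecule that binds CD6, had 394, 275, 279 and 381 CPM in pop3, 30.7, 24, 17.2 and 109.5 CPM in pop2 and 171 to 360.1 CPM (median 324) in monocytes. Pop3 and monocytes overlapped, and every pop2 library was lower. Mrpl45, a protein of the mitochondrial ribosome, had 121, 90.2, 39.1 and 44.5 CPM in pop3, 5.15, 6.29, 5.73 and 4.53 CPM in pop2 and 44.1 to 101 CPM (median 70) in monocytes. Itgav, the integrin alpha V chain, which binds vitronectin and takes part in the uptake of dying cells, had 71.7, 180.0, 196 and 268 CPM in pop3, 10.3, 39.6, 70.5 and 24.9 CPM in pop2 and 180.5 to 258 CPM (median 208) in monocytes. The Itgav level of the HFD 2 pop3 library was the lowest of its group and near those of pop2.

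The remaining members were Faf2, Socs6 and Cggbp1. Faf2, a factor in the removal of misfolded proteins at the endoplasmic reticulum, had 109, 81.5, 71.8 and 71.5 CPM in pop3, 22.2, 10.5, 9.48 and 23.5 CPM in pop2 and 43.2 to 151 CPM (median 64.2) in monocytes. Socs6, a member of the suppressor of cytokine signalling family, had 181, 187, 159 and 121 CPM in pop3, 53.7, 56.9, 53.6 and 84 CPM in pop2 and 101 to 211 CPM (median 139) in monocytes. Cggbp1, a protein that binds CGG repeats in DNA, had 300.0, 203, 375 and 491 CPM in pop3, 157, 117, 219 and 223 CPM in pop2 and 373 to 537 CPM (median 466) in monocytes. Cggbp1 was the closest to the edge of the class. The class compares pop3 with pop2 alone, and the Tim4+ pop1 averaged 72.5 CPM of Faf2, near the pop3 mean of 83.6 CPM. For the other members pop1 averaged 12.2 CPM (Mrpl45), 83.2 CPM (Alcam), 49.3 CPM (Itgav), 78.8 CPM (Socs6) and 245 CPM (Cggbp1), below the pop3 means. These levels were not particular to pop3 among the Tim4- cells. The CD11c+ pop4 averaged 583 CPM of Alcam, 246 CPM of Itgav, 260 CPM of Socs6 and 76.4 CPM of Mrpl45, above the pop3 means. It averaged 49.8 CPM of Faf2 and 296 CPM of Cggbp1, below them. The log2 differences against pop2 were 3.74 for Mrpl45, 2.90 for Alcam, 2.31 for Faf2, 2.30 for Itgav, 1.36 for Socs6 and 0.93 for Cggbp1. Those against monocytes in the 13 libraries ran from -0.38 (Cggbp1) to 0.13 (Socs6). The class is small and moves with single libraries, with 2 members without pop3 CD-CD 7 and 25 without pop2 CD-CD 8. Leaving out a single library ended the pop2 call of Itgav (adjusted p up to 0.0617), Faf2 (0.0631), Socs6 (0.0824) and Cggbp1 (0.0958), but not those of Alcam and Mrpl45.

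**Figure D2:**
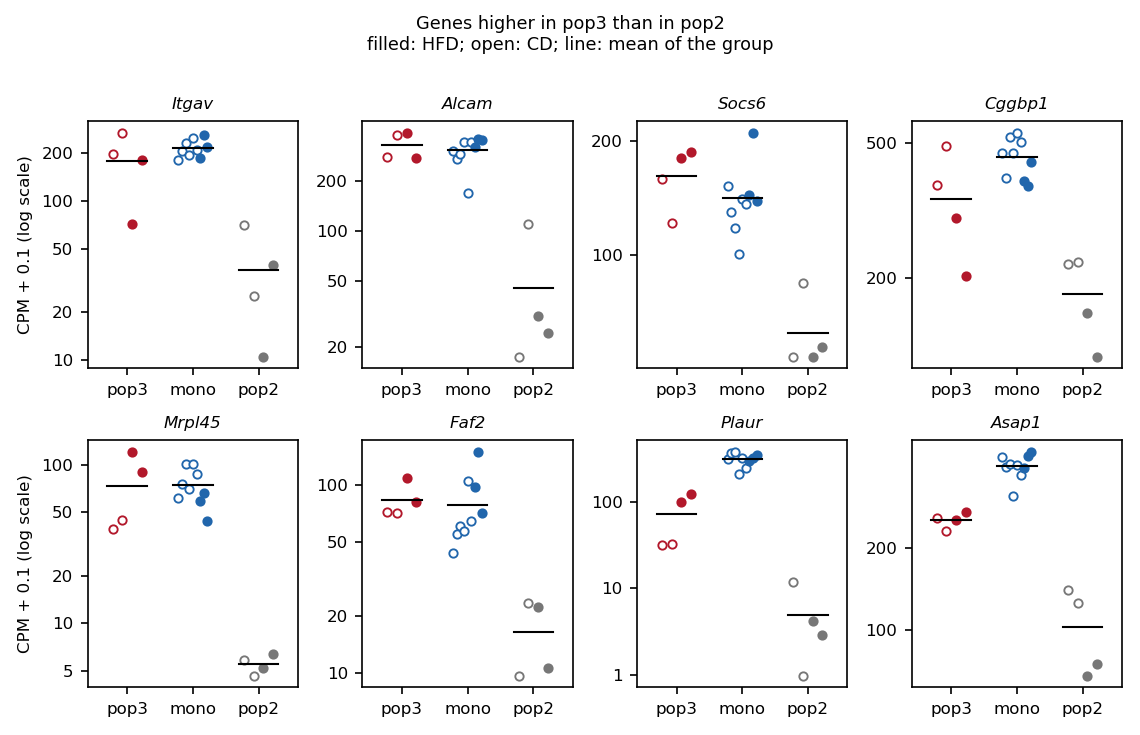
Levels of the monocyte-like genes and of Plaur and Asap1 in pop3, monocytes and pop2 (CPM plus 0.1, log scale). Each point is a library, filled for HFD and open for CD, and the line is the group mean. Alcam of pop3 (275 to 394 CPM) overlaps the monocyte range, while Plaur of pop3 (31.8 to 124 CPM) lies below all monocytes.

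In a second set of genes pop3 lay between monocytes and pop2. Of the 28 genes higher in pop3 than in pop2, 13 were lower in pop3 than in monocytes, 12 were not called against monocytes and 3 were higher. Of all 12138 genes tested against monocytes, 13.8% were lower and 10.5% higher in pop3. Both contrasts share the pop3 libraries, so the counts among the 28 genes are a description. Ccr2 belongs to the 13, as do Plaur, the urokinase receptor, and Asap1, a GTPase-activating protein of the Arf family. Plaur had 98.8, 124, 31.8 and 32.8 CPM in pop3, 4.16, 2.8, 11.7 and 0.872 CPM in pop2 and 207 to 378 CPM (median 318) in monocytes. Plaur fell relative to monocytes (log2 difference -2.38, SE 0.27, adjusted p = 0.000119) and was above pop2 (log2 difference 3.77, SE 0.53, adjusted p = 0.0067). Asap1 had 253, 271, 256 and 231 CPM in pop3, 67.8, 75.1, 140.2 and 126 CPM in pop2 and 309 to 450.1 CPM (median 404) in monocytes. Here too pop3 stood between its neighbours (against monocytes: log2 difference -0.68, SE 0.10, adjusted p = 0.000332, and against pop2: log2 difference 1.32, SE 0.21, adjusted p = 0.00776). Klra2 and Klrk1, lectin-like receptors of the NK gene complex that are also found on myeloid cells, had a small part of the monocyte level. The Tim4+ pop1 averaged 7.59 CPM of Klra2 and 38.1 CPM of Plaur, inside the pop3 ranges, but 0.215 CPM of Klrk1 and 129 CPM of Asap1, below them. The CD11c+ pop4 averaged 133 CPM of Klra2, 237 CPM of Klrk1, 241 CPM of Plaur and 400 CPM of Asap1, above the pop3 ranges. Whether any of the pop3 levels was retained from monocytes was not tested. Klra2 had 0.827, 7.05, 9.6 and 39.8 CPM in the pop3 libraries, against 548 to 735 CPM (median 636) in monocytes (log2 difference -5.59, SE 0.51, adjusted p = 4.13e-05), and pop2 averaged 0.262 ± 0.246 CPM. Klrk1 had 17.4, 31.1, 7.29 and 3.58 CPM in the pop3 libraries, against 49.3 to 218 CPM (median 133) in monocytes (log2 difference -3.51, SE 0.45, adjusted p = 0.000438), and pop2 averaged 0.494 ± 0.279 CPM. With the 2 CD libraries of pop2 alone, pop2 calls of Alcam, Plaur, Asap1, Klra2 and Klrk1 were lost, with adjusted p values of 0.108, 0.131, 0.0632, 0.0849 and 0.114, whereas Ccr2 kept its call (0.00948).

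The 3 genes above both neighbours were Rgs1, Noct and Mki67. They were not particular to pop3, as the CD11c+ pop4 averaged 276, 219.5 and 108.9 CPM of them in that order. The pop3 means were 110.5, 196.9 and 84.7 CPM. Rgs1, a regulator of G protein signalling that dampens chemokine receptors, had 131, 109, 24.9 and 177 CPM in the pop3 libraries, against 0 to 0.376 CPM (median 0.126) in monocytes, and pop2 averaged 0.597 ± 0.567 CPM (SD, n = 4). Pop3 was above both groups in every library (against monocytes: log2 difference 9.88, SE 0.82, adjusted p = 8.38e-07, and against pop2: log2 difference 7.51, SE 0.92, adjusted p = 0.00625). Noct, a circadian phosphatase of NADP cofactors, had 291, 236, 95.2 and 166 CPM in the pop3 libraries, against 38.7 to 124 CPM (median 68.2) in monocytes, and pop2 averaged 15.8 ± 20.8 CPM (log2 difference 3.89, SE 0.64, adjusted p = 0.0301). Mki67 is described with the cell-cycle genes. The pop2 call of Noct was lost without single libraries (adjusted p up to 0.0868). The 5 genes lower in pop3 than in pop2 were Timd4, Il10, Irgm1, Ipmk and Alas2. Il10, an anti-inflammatory cytokine, had 0.236, 0.341, 0.355 and 1.89 CPM in pop3, 69.3, 49.9, 63.7 and 58.1 CPM in pop2 and at most 0.688 CPM in monocytes. Il10 was too low in both pop3 and monocytes to be tested between them, and its pop2 call was lost in 9 of 17 fits that left out a library (adjusted p up to 0.119). Irgm1, an interferon-induced GTPase, had 51.2, 31, 33.9 and 38.5 CPM in the pop3 libraries, against 374 to 566 CPM (median 458) in monocytes, and pop2 averaged 114 ± 54.3 CPM. Irgm1 of pop3 was below both neighbours (against monocytes: log2 difference -3.57, SE 0.14, adjusted p = 5.53e-09, and against pop2: log2 difference -1.51, SE 0.27, adjusted p = 0.0277), though the pop2 call was lost in 4 of 17 such fits (adjusted p up to 0.083). Alas2, of haem synthesis, and Ipmk, an inositol kinase, were lower than both neighbours as well. Single libraries decided their pop2 calls (adjusted p up to 0.0716 and 0.123).

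A wider definition, added after the data had been seen, asked only that pop3 lie within the same interval of monocytes while pop2 differed from monocytes past the threshold. It held 327 genes (2.38% of those tested), of which 110 were higher and 217 lower in pop2 than in monocytes. Its list members included Adgre1, the F4/80 antigen, with 287, 439, 569.7 and 457 CPM in the pop3 libraries, against 334 to 506 CPM (median 376) in monocytes, and a pop2 mean of 579 ± 235 CPM. Csf1r was another, with a pop2 mean of 591 ± 108 CPM. Both are core macrophage genes whose pop3 and monocyte values overlapped, and neither was called between pop3 and pop2. The wide definition thus does not set pop3 apart from pop2. Some of its genes, such as Ctsb, Ctss and Npc2, are also in the resident-like class that follows.

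Resident-like genes, the reverse case, were those whose interval of pop3 against pop2 lay within -1 to 1 and whose difference against monocytes was past the threshold. This class held 543 genes (3.95% of those tested), 170 of them higher and 373 lower than in monocytes. Of all 13733 genes tested in the same fit of 17 libraries, 1883 were higher and 1198 lower in pop3 than in monocytes. Leaving out pop3 CD-CD 7 gave 349 resident-like genes. Stab1, a scavenger receptor of resident macrophages, had 205, 257, 289 and 259.8 CPM in the pop3 libraries, against 1.65 to 4.11 CPM (median 2.56) in monocytes (log2 difference 6.57, SE 0.27, adjusted p = 1.75e-09), and pop2 averaged 319.6 ± 21.1 CPM. Mrc1, the mannose receptor CD206, had 1338, 1381, 1507 and 1551 CPM in the pop3 libraries, against 37.7 to 157 CPM (median 101) in monocytes (log2 difference 3.88, SE 0.29, adjusted p = 3.36e-07), and pop2 averaged 1544 ± 133 CPM. Cd36, a scavenger receptor that takes up fatty acids and oxidised lipoproteins, had 1079, 1382, 2307 and 1982 CPM in the pop3 libraries, against 51.1 to 158 CPM (median 108) in monocytes (log2 difference 3.94, SE 0.29, adjusted p = 2.5e-07), and pop2 averaged 1815 ± 816 CPM. Pop3 lay well above every monocyte library in each of these, close to pop2. The class is cut from these same levels. Closeness to pop2 and a call against monocytes were conditions of membership, so its members are described and not tested further. Kitl, the ligand of the receptor Kit, had 235, 392, 456 and 360.0 CPM in the pop3 libraries, against 0 to 0.641 CPM (median 0.253) in monocytes (log2 difference 10.16, SE 0.51, adjusted p = 4.99e-09), and pop2 averaged 423 ± 185 CPM. Wwp1, a ubiquitin ligase, had 700.0, 878, 1244 and 1179 CPM in the pop3 libraries, against 49.1 to 151 CPM (median 96.5) in monocytes (log2 difference 3.35, SE 0.27, adjusted p = 5.13e-07). Dab2, described above, belongs here with a pop2 mean of 1384 ± 379.5 CPM. Fabp4, a fatty acid binding protein of macrophages and of adipocytes, had 292, 262, 225 and 311 CPM in the pop3 libraries, against 5.26 to 26.7 CPM (median 11.7) in monocytes (log2 difference 4.37, SE 0.37, adjusted p = 1.29e-06). Fabp4 stood at a similar level in all macrophage populations, with means of 233 CPM in pop1, 272 CPM in pop2 and 225 CPM in pop4, and the part of adipocyte RNA in it was not tested.

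Genes that fell to the pop2 level were led by Msrb1, a methionine sulfoxide reductase, with 26.4, 21.5, 14.6 and 24 CPM in the pop3 libraries, against 139.7 to 237 CPM (median 186) in monocytes (log2 difference -3.17, SE 0.19, adjusted p = 2.61e-07). Taldo1, a transaldolase of the pentose phosphate pathway, had 96.3, 137, 65.6 and 43.6 CPM in the pop3 libraries, against 371 to 484 CPM (median 390.5) in monocytes (log2 difference -2.38, SE 0.19, adjusted p = 4.75e-06). Dck, the kinase that salvages deoxycytidine, had 79.6, 114, 124 and 102 CPM in the pop3 libraries, against 430.0 to 628 CPM (median 566) in monocytes (log2 difference -2.38, SE 0.13, adjusted p = 9.8e-08). No pop3 library reached the lowest monocyte library for any of these. Pop2 averaged 25.4 ± 17.4 CPM of Msrb1, 114 ± 37 CPM of Taldo1 and 114 ± 44.8 CPM of Dck.

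**Figure D3:**
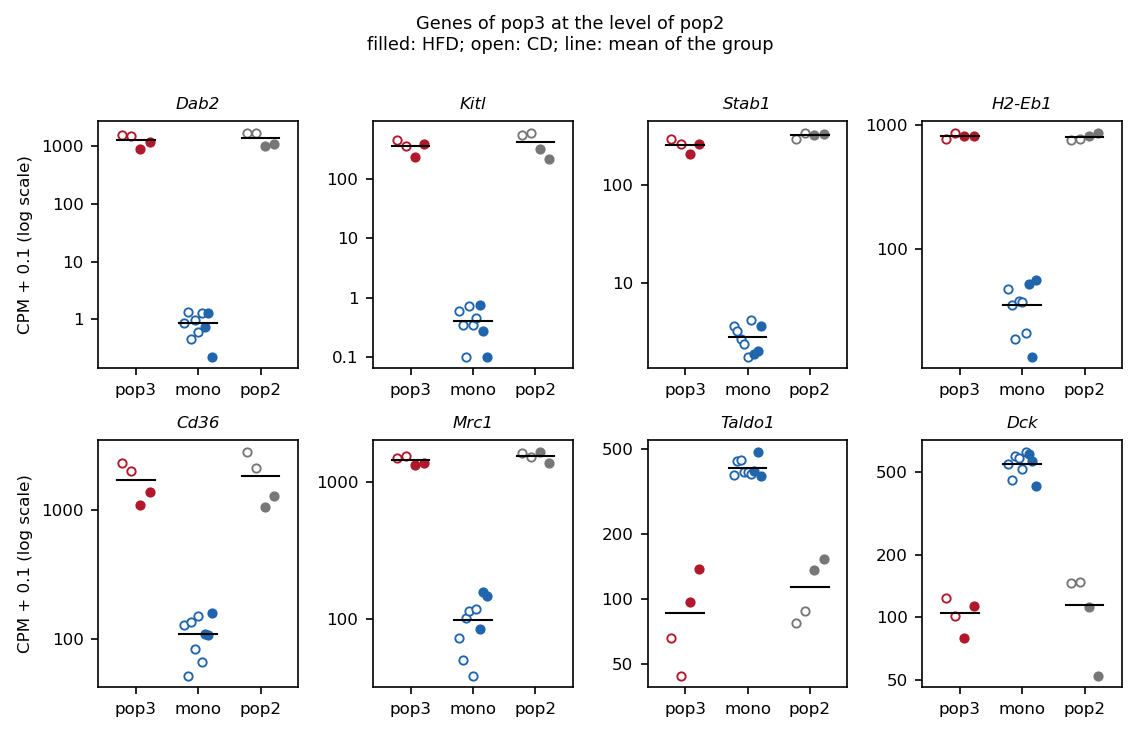
Levels of resident-like genes in pop3, monocytes and pop2 (CPM plus 0.1, log scale), with Dab2, Kitl, Stab1, H2-Eb1, Cd36 and Mrc1 above monocytes and Taldo1 and Dck below. Each point is a library, filled for HFD and open for CD, and the line is the group mean. Pop3 and pop2 points lie together in each panel, and the Dab2 points of pop3 (889 to 1561 CPM) are apart from all monocytes.

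Antigen presentation genes changed unevenly. Of the 16 genes of this list, all tested, 6 rose and 2 fell, with a median log2 difference of 0.34 against -0.08 for all genes tested. The risers were H2-Aa, H2-Ab1, H2-Eb1, H2-DMb1, Cd74 and Ciita. H2-Eb1, a beta chain, had 814, 808, 775 and 862 CPM in the pop3 libraries, against 13.2 to 56.1 CPM (median 37.2) in monocytes (log2 difference 4.51, SE 0.32, adjusted p = 2.33e-07). H2-Aa, an alpha chain, had 1182, 1373, 1584 and 1602 CPM in the pop3 libraries, against 231 to 448 CPM (median 362) in monocytes (log2 difference 2.08, SE 0.17, adjusted p = 5.4e-07). Cd74, the invariant chain that escorts class II molecules, had 1122, 1199, 1223 and 1234 CPM in the pop3 libraries, against 376 to 566 CPM (median 517) in monocytes (log2 difference 1.26, SE 0.11, adjusted p = 1.1e-06). Pop2 stood at the same height, with 799.6 CPM of H2-Eb1 and 1418 CPM of H2-Aa, while the MHCII low pop1 averaged 208 CPM and 539 CPM. These genes encode what the gate selected, and the class II genes are near-identical enough for reads to have been split between them. Ciita, the transcriptional activator of class II genes, had 114, 132, 37.3 and 73 CPM in the pop3 libraries, against 1.86 to 20 CPM (median 10.4) in monocytes (log2 difference 2.89, SE 0.51, adjusted p = 0.000795). H2-DMa, a chain of the peptide exchange factor, had 411, 455, 379 and 444 CPM in the pop3 libraries, against 378 to 440.1 CPM (median 404) in monocytes, and the interval of its difference was -0.14 to 0.24. The fallers were Ctss, the cathepsin that trims the invariant chain, with 757, 692, 825 and 907 CPM in the pop3 libraries, against 972 to 1332 CPM (median 1056) in monocytes, and Ifi30, a lysosomal thiol reductase, with 219, 145, 119.6 and 166 CPM in the pop3 libraries, against 278 to 384 CPM (median 307) in monocytes (adjusted p = 0.00501 and 0.000425). The call of Ctss did not hold with RLE factors (adjusted p = 0.0972) or with the background covariate (0.0795), where 4 genes of the list were higher and 1 lower.

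The promoters of H2-Eb1 and H2-Aa are shown because both genes led the list. They are from RefSeq on GRCm38.p6 and run from 250 bases before to 50 after the gene start, 5′ to 3′ on the gene's strand. Capitals mark the Y box of class II promoters, searched as CTGATTGG or CCAATCAG on both strands.
H2-Eb1 (chr17:34305617-34305916, plus strand): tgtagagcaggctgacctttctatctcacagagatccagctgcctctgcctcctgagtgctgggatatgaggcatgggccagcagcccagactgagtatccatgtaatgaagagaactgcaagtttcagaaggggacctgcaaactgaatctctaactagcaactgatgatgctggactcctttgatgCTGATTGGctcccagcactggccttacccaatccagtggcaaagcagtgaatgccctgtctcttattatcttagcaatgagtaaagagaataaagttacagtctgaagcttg
H2-Aa (chr17:34287774-34288073, minus strand): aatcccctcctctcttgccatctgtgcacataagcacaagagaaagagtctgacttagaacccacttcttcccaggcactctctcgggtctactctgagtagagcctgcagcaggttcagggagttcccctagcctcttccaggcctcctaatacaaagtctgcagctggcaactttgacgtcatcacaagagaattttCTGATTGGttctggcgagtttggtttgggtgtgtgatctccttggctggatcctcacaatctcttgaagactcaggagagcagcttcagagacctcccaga
The match began 62 bases before the start of H2-Eb1 and 51 bases before that of H2-Aa. Of 11 genes of the list with a promoter in the table, 4 held the motif, namely H2-Aa, H2-Eb1, H2-Eb2 and H2-Oa (36.4%), against 1346 of 32851 promoters of all genes (4.1%). A match of letters is a description and does not show binding.

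The lists that follow are set beside the share of all tested genes that rose (10.5%) or fell (13.8%) in pop3. Classical monocyte genes were mostly lower. Of 20 listed, 18 were tested, 14 fell and 1 rose, with a median log2 difference of -5.09. Chil3, a chitinase-like secreted protein, had 8.51, 0.568, 1.07 and 1.13 CPM in the pop3 libraries, against 521 to 970.1 CPM (median 642) in monocytes (log2 difference -8.06, SE 0.50, adjusted p = 1e-06). Vcan, the proteoglycan versican, had 2.6, 23.9, 1.24 and 6.79 CPM in the pop3 libraries, against 214 to 859 CPM (median 476) in monocytes (log2 difference -5.86, SE 0.58, adjusted p = 9.41e-05). Lyz2, lysozyme, fell by less and stayed abundant, with 804, 859, 1159 and 1124 CPM in the pop3 libraries, against 2073 to 2372 CPM (median 2214) in monocytes (log2 difference -1.15, SE 0.09, adjusted p = 8.38e-07). F13a1, the A chain of coagulation factor XIII, is a gene of both monocytes and resident macrophages and had 997, 1059.5, 1079.5 and 999 CPM in the pop3 libraries, against 966 to 1362 CPM (median 1212) in monocytes, with an interval of its difference of -0.42 to 0.0066. Cd14, the lipopolysaccharide co-receptor, was the member that rose, with 148, 243, 254 and 202 CPM in the pop3 libraries, against 42.2 to 197 CPM (median 97.2) in monocytes. The groups overlapped, and the call of Cd14 (adjusted p = 0.0341) was lost without pop3 CD-CD 7 (adjusted p = 0.0975).

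Genes of non-classical, patrolling monocytes fell too, with 9 of 16 tested members lower and 1 higher (Cd36), and a median of -2.04. Itga4, the integrin alpha 4 chain, had 379, 482, 338 and 323 CPM in the pop3 libraries, against 879 to 1486 CPM (median 1263) in monocytes (log2 difference -1.74, SE 0.13, adjusted p = 1.05e-06). Itgal, the LFA-1 alpha chain, had 12.9, 21.7, 36.6 and 2.64 CPM in the pop3 libraries, against 365 to 548 CPM (median 446) in monocytes (log2 difference -4.61, SE 0.39, adjusted p = 1.63e-05). Treml4, a receptor of patrolling monocytes, had 5.67, 0.568, 0 and 0.189 CPM in the pop3 libraries, against 52.5 to 183 CPM (median 83.2) in monocytes (log2 difference -6.38, SE 0.75, adjusted p = 0.000306). Nr4a1, the nuclear receptor on which patrolling monocytes depend, had 15.8, 2.61, 11.7 and 2.64 CPM in the pop3 libraries, against 69.9 to 194 CPM (median 134) in monocytes (log2 difference -4.00, SE 0.44, adjusted p = 0.000119). In these genes no pop3 library reached the monocytes. Cx3cr1, the fractalkine receptor, had 6.38, 9.44, 3.73 and 193 CPM in the pop3 libraries, against 145 to 415 CPM (median 286) in monocytes, with CD-CD 8 alone inside the monocyte range. Its call (adjusted p = 0.0492) was lost in 11 of 13 fits that left out a library.

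**Figure D4:**
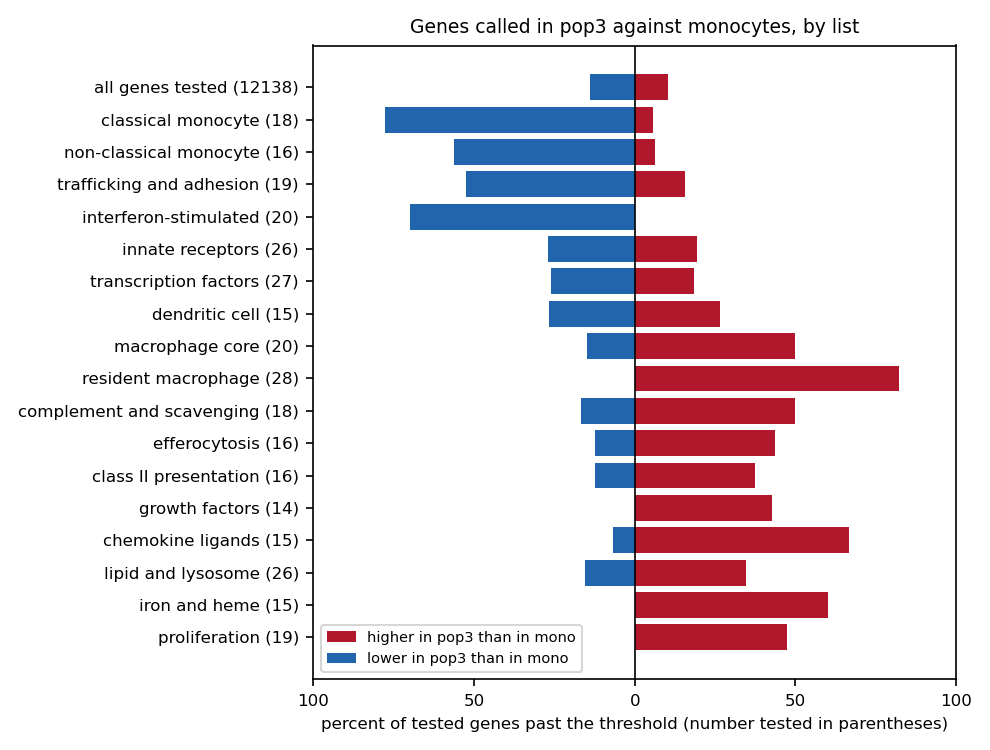
Percent of the tested genes of each list that were called higher or lower in pop3 than in monocytes (adjusted p under 0.05), beside the same for all 12138 genes tested (10.5% higher and 13.8% lower). Classical monocyte and interferon-stimulated genes lie on the lower side and resident macrophage genes on the higher side.

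Among trafficking and adhesion genes 10 of 19 tested fell and 3 rose (median -0.88). Itgb7, the integrin beta 7 chain, had 2.48, 4.55, 3.91 and 4.15 CPM in the pop3 libraries, against 61.7 to 165 CPM (median 110.1) in monocytes (log2 difference -4.88, SE 0.29, adjusted p = 5.19e-07). Cd44, a hyaluronan receptor, fell by less, with 521, 690.2, 545 and 734 CPM in the pop3 libraries, against 959 to 1142 CPM (median 1032) in monocytes (log2 difference -0.73, SE 0.10, adjusted p = 0.00012). The risers included Itga9 and Vcam1. Itga9, the integrin alpha 9 chain, had 34.9, 30, 32 and 39.2 CPM in the pop3 libraries, against 0 to 1.62 CPM (median 0.506) in monocytes (log2 difference 6.27, SE 0.85, adjusted p = 0.000144). Vcam1, an adhesion molecule of macrophages and stromal cells, had 4.49, 81.4, 168 and 87 CPM in the pop3 libraries, against 0 to 0.821 CPM (median 0.172) in monocytes (log2 difference 7.97, SE 0.97, adjusted p = 5.1e-05). HFD 2 was low in Vcam1 relative to the other pop3 libraries.

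Transcription factors of the lineage split in both directions, with 5 higher and 7 lower among 27 tested (median -0.002). Maf, which restrains proliferation and sets up macrophage genes, had 790.5, 745, 1041 and 955 CPM in the pop3 libraries, against 70.8 to 249 CPM (median 147) in monocytes (log2 difference 2.70, SE 0.29, adjusted p = 8.28e-06). All pop3 libraries were above every monocyte library in Maf. On the other side, Cebpb, a factor that sustains monocytes, had 156, 112, 64.9 and 69.2 CPM in the pop3 libraries, against 205 to 492 CPM (median 403) in monocytes (log2 difference -2.02, SE 0.23, adjusted p = 7.67e-05). Runx3, a Runt family factor, had 2.13, 3.3, 9.95 and 1.89 CPM in the pop3 libraries, against 34 to 66.6 CPM (median 50.7) in monocytes (log2 difference -3.50, SE 0.45, adjusted p = 0.000266). Spi1, which encodes the lineage factor PU.1, had 132, 116, 72 and 54.3 CPM in the pop3 libraries, against 168 to 339 CPM (median 206) in monocytes (log2 difference -1.33, SE 0.22, adjusted p = 0.00126). Irf8, needed for monocyte development, had 124, 72.4, 108 and 79.6 CPM in the pop3 libraries, against 118 to 238 CPM (median 191) in monocytes (log2 difference -0.94, SE 0.21, adjusted p = 0.00687), with some overlap. Zeb2, a repressor needed for tissue macrophage identity, had 609, 819, 926 and 1198 CPM in the pop3 libraries, against 559.9 to 1003 CPM (median 690.3) in monocytes, which was not past the threshold (adjusted p = 0.172). The background covariate gave counts for this list of 2 higher and 4 lower, and Spi1 and Irf8 were not called (adjusted p = 0.13 and 0.129).

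Resident macrophage genes were the most uniform gain. Of 30 listed, 28 were tested, 23 rose and 0 fell, with a median log2 difference of 5.63. Pop3 lay wholly above monocytes for 23 of the members tested, against 6.92% of all genes. Gas6, a bridge between dying cells and receptors such as Mertk, had 291, 222, 232 and 185 CPM in the pop3 libraries, against 0.233 to 0.752 CPM (median 0.469) in monocytes (log2 difference 8.99, SE 0.33, adjusted p = 6.19e-10). Folr2, the folate receptor beta, had 391, 491, 642 and 569 CPM in the pop3 libraries, against 0.116 to 5.79 CPM (median 0.235) in monocytes (log2 difference 9.51, SE 0.77, adjusted p = 1.13e-06). Igf1, insulin-like growth factor 1, had 1146, 1539, 1537 and 1611 CPM in the pop3 libraries, against 0.172 to 14.6 CPM (median 0.633) in monocytes (log2 difference 8.31, SE 0.88, adjusted p = 2.41e-05). A single monocyte library makes the upper end of Folr2, and DESeq2 gave Folr2 and Igf1 no adjusted p. Cd209a, a C-type lectin that monocytes also carry, had 362, 299, 519 and 534 CPM in the pop3 libraries, against 176 to 718 CPM (median 479) in monocytes, and its interval was -0.69 to 0.68. Against pop2, 1 of 29 genes tested was lower in pop3 (Timd4) and none higher. Of all genes tested against pop2, 0.0364% were lower and 0.204% higher.

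Core macrophage genes rose in 10 and fell in 3 of 20 tested (median 0.47). Selenop, a secreted selenium carrier, had 1705, 1788, 2701 and 2568 CPM in the pop3 libraries, against 727 to 946 CPM (median 836) in monocytes (log2 difference 1.41, SE 0.10, adjusted p = 2.61e-07). Cd63, a tetraspanin of late endosomes, had 154, 137, 161 and 175 CPM in the pop3 libraries, against 0 to 2.91 CPM (median 0.377) in monocytes (log2 difference 7.97, SE 0.74, adjusted p = 8.22e-06). Fcgr1, the high-affinity IgG receptor CD64, went the other way, with 54.1, 101, 88.5 and 134 CPM in the pop3 libraries, against 198 to 324 CPM (median 244) in monocytes (log2 difference -1.46, SE 0.22, adjusted p = 0.000384). Cd68, a lysosomal glycoprotein, had 229.6, 473, 639.9 and 587 CPM in the pop3 libraries, against 557 to 745 CPM (median 630.3) in monocytes (adjusted p = 0.119).

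Complement and scavenging genes rose in 9 and fell in 3 of 18 tested (median 1.85). C1qb, which joins C1qa in C1q, had 849, 908, 1041 and 1077 CPM in the pop3 libraries, against 0.127 to 6.28 CPM (median 0.877) in monocytes (log2 difference 9.12, SE 0.50, adjusted p = 3.97e-08). C3ar1, the receptor for the C3a fragment, had 549.6, 676, 1140.4 and 1210.1 CPM in the pop3 libraries, against 0 to 26.9 CPM (median 2.37) in monocytes (log2 difference 7.49, SE 0.80, adjusted p = 2.57e-05). C3 itself fell, with 2.84, 47.2, 36.2 and 7.36 CPM in the pop3 libraries, against 200.3 to 284 CPM (median 240.0) in monocytes (log2 difference -3.37, SE 0.49, adjusted p = 0.000866), and was the 1 member still lower with the background covariate. Thus the first component and a receptor were higher in pop3 and the central protein lower. Of genes for the uptake of dying cells, 7 of 16 tested rose and 2 fell (median 0.37). Mertk, a receptor of Gas6, had 34.9, 47, 50.6 and 186 CPM in the pop3 libraries, against 0 to 1.12 CPM (median 0.127) in monocytes (log2 difference 8.20, SE 0.92, adjusted p = 2.24e-05). Axl, another Gas6 receptor, had 303, 325, 375 and 413 CPM in the pop3 libraries, against 35.3 to 196 CPM (median 84.9) in monocytes (log2 difference 1.79, SE 0.32, adjusted p = 0.000626). Abca1, a cholesterol exporter induced after uptake, had 312, 325, 630.4 and 742 CPM in the pop3 libraries, against 44.2 to 173 CPM (median 71.1) in monocytes (log2 difference 2.68, SE 0.30, adjusted p = 1.43e-05). The fallers were Havcr2, which encodes Tim3, with 0.178 to 12.7 CPM in pop3, against 14.7 to 81 CPM in monocytes, and Cd300lf, a phosphatidylserine receptor, with 0 to 1.18 CPM in pop3, against 5.51 to 88.4 CPM in monocytes (adjusted p = 0.00871 and 0.00399). Neither was called with the background covariate (adjusted p = 0.07 and 0.42), nor was Axl (0.109).

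Growth factor genes rose in 6 of 14 tested and fell in 0 (median 3.04), and 6 of 20 were too low to be tested. Besides Kitl and Igf1 they included Pdgfc, a platelet-derived growth factor that acts on mesenchymal cells, with 53.4, 143, 191 and 123 CPM in the pop3 libraries, against 0 to 0.498 CPM (median 0) in monocytes (log2 difference 9.91, SE 0.82, adjusted p = 6.38e-07). Bmp2, a bone morphogenetic protein, had 25.8, 61.4, 94.2 and 84.1 CPM in the pop3 libraries, against 0 to 0.128 CPM (median 0) in monocytes (log2 difference 9.93, SE 0.85, adjusted p = 5.17e-07). Both were near absent from monocytes. In pop4 Pdgfc averaged 10.6 ± 11.9 CPM and Bmp2 0.465 ± 0.767 CPM. Chemokine ligands rose in 10 and fell in 1 of 15 tested (median 3.06). Ccl2, the main ligand of Ccr2, had 362, 384, 538 and 479 CPM in the pop3 libraries, against 57.7 to 118 CPM (median 68.2) in monocytes (log2 difference 2.56, SE 0.16, adjusted p = 5.45e-08). Ccl8, a CC chemokine, had 303, 315, 458 and 541 CPM in the pop3 libraries, against 0 to 1.87 CPM (median 0.344) in monocytes (log2 difference 9.74, SE 0.53, adjusted p = 1.57e-08). Pop3 thus held Ccl2 and Ccl7 above monocytes beside its own Ccr2. Ccl5 was the member that fell, with 0, 0.455, 0 and 8.11 CPM in the pop3 libraries, against 5 to 109.8 CPM (median 53.5) in monocytes, and its call (adjusted p = 0.0239) was lost without pop3 HFD 3 (adjusted p = 0.0625). Chemokine genes numbered 7 higher and 0 lower with the background covariate.

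Of the cytokine list 3 of 11 tested rose and 0 fell (median -0.53). Retnla, the resistin-like protein RELM alpha, had 1732, 1895, 2379 and 2000.1 CPM in the pop3 libraries, against 3.8 to 50.2 CPM (median 10.5) in monocytes (log2 difference 6.77, SE 0.55, adjusted p = 1.54e-06). Tslp, a lymphopoietin of type 2 responses, had 232, 237, 467 and 445 CPM in the pop3 libraries, against 1.75 to 34.6 CPM (median 15.4) in monocytes (log2 difference 4.50, SE 0.70, adjusted p = 0.000268). Il6, an inflammatory cytokine, had 0.354, 36.2, 157 and 48.3 CPM in the pop3 libraries, against 0 to 5.93 CPM (median 0) in monocytes, with HFD 2 inside the monocyte range (adjusted p = 0.00373). DESeq2 gave Tslp and Il6 no adjusted p.

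Lipid and lysosome genes rose in 9 and fell in 4 of 26 tested (median 0.28). Lpl, lipoprotein lipase, had 985, 938, 689 and 703 CPM in the pop3 libraries, against 122 to 335 CPM (median 248) in monocytes (log2 difference 1.69, SE 0.20, adjusted p = 2.26e-05). The fallers were Lgals3, Npc2, Apoc1 and Apoc2. Lgals3, galectin 3, had 417, 390.3, 313 and 382 CPM in the pop3 libraries, against 576 to 715 CPM (median 584) in monocytes (log2 difference -0.75, SE 0.10, adjusted p = 0.000116). Npc2, which moves cholesterol out of lysosomes, had 476, 442, 455 and 444 CPM in the pop3 libraries, against 605 to 749 CPM (median 669) in monocytes (log2 difference -0.58, SE 0.08, adjusted p = 0.000154). Trem2, a lipid receptor of lipid-associated macrophages, had 93.7, 109, 41.8 and 80.8 CPM in the pop3 libraries, against 32.9 to 152 CPM (median 62.5) in monocytes, and its values overlapped those of monocytes (adjusted p = 0.91).

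Iron and haem genes rose in 9 and fell in 0 of 15 tested (median 0.96). Slc40a1, the iron exporter ferroportin, had 4.96, 154, 251 and 434 CPM in the pop3 libraries, against 0 to 0.939 CPM (median 0.252) in monocytes (log2 difference 9.39, SE 0.94, adjusted p = 5.16e-06). HFD 2 was low in Slc40a1 within pop3, yet above all monocytes. Cp, the ferroxidase ceruloplasmin, had 86.5, 148, 218 and 98.3 CPM in the pop3 libraries, against 8.47 to 25.1 CPM (median 19.1) in monocytes (log2 difference 2.97, SE 0.36, adjusted p = 2.71e-05). Tfrc, the transferrin receptor, had 395, 537, 597 and 552 CPM in the pop3 libraries, against 0.377 to 81.9 CPM (median 24) in monocytes (log2 difference 3.91, SE 0.72, adjusted p = 0.000926). The count was 4 with the background covariate and 2 in the HFD libraries alone, and Tfrc was not called with the covariate (adjusted p = 0.186).

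Innate receptors moved both ways, with 5 higher and 7 lower of 26 tested (median -0.16). Tlr13, a sensor of bacterial ribosomal RNA, had 1.77, 6.48, 14.7 and 5.85 CPM in the pop3 libraries, against 299.9 to 581 CPM (median 398) in monocytes (log2 difference -5.82, SE 0.33, adjusted p = 4.93e-07). Tlr7, a sensor of single-stranded RNA, had 139.8, 183, 181 and 296 CPM in the pop3 libraries, against 295 to 577 CPM (median 492) in monocytes (log2 difference -1.20, SE 0.20, adjusted p = 0.000819), and Tlr4, the lipopolysaccharide receptor, rose, with 263, 411, 550.5 and 338 CPM in the pop3 libraries, against 104 to 207 CPM (median 137) in monocytes (adjusted p = 0.000106). Pop3 thus had less of these RNA sensors and more Tlr4. With the background covariate 2 receptors were higher and 3 lower.

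Interferon-stimulated genes fell. All 20 were tested, 14 fell and 0 rose, with a median of -2.29. Irf7, the factor that amplifies interferon responses, had 5.55, 5.57, 6.04 and 4.91 CPM in the pop3 libraries, against 161 to 305 CPM (median 248) in monocytes (log2 difference -5.42, SE 0.21, adjusted p = 5.53e-09). Oas3, which senses double-stranded RNA, had 0.945, 25.5, 9.42 and 2.08 CPM in the pop3 libraries, against 119 to 212 CPM (median 172) in monocytes (log2 difference -4.27, SE 0.56, adjusted p = 0.000513). Ifit1, which binds viral RNA ends, had 1.06, 25.2, 63.4 and 68.7 CPM in the pop3 libraries, against 202 to 431 CPM (median 291) in monocytes (log2 difference -3.02, SE 0.55, adjusted p = 0.00363). Usp18, which removes Isg15 from proteins, had 49.6, 71.1, 7.46 and 60.8 CPM in the pop3 libraries, against 157 to 342 CPM (median 275) in monocytes (log2 difference -2.59, SE 0.39, adjusted p = 0.000939). The pop3 libraries spread widely in Oas3, Ifit1 and Usp18 but stayed below all monocytes, whereas Irf7 was uniformly low. Oas2, a relative of Oas3, had 163, 200.4, 135 and 112 CPM in the pop3 libraries, against 123 to 235 CPM (median 155) in monocytes, which overlapped monocytes (adjusted p = 0.436). Pop2 was also low, with 11.9 CPM of Irf7 and 52.2 CPM of Ifit1. No list member was called between pop3 and pop2 among 20 tested, but only 0.24% of all genes tested were. The count therefore says little about the list. Irgm1, described above, is outside the list and was called lower in pop3 than in pop2. The count of 14 was 7 with the background covariate and 6 in the HFD libraries alone, where Oas3 and Ifit1 were not called (adjusted p = 0.123 and 0.0799).

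Promoters of this list were searched for the interferon-stimulated response element, spelled GAAA, any 2 bases and GAAA, or its reverse complement TTTC, any 2 bases and TTTC, on both strands. The element occurred in 8 of 15 genes with a promoter in the table (53.3%), against 1131 of 32851 promoters of all genes (3.44%). The 4 shown belong to genes that were low in pop3 (Ifit1, Oas3) or differed by diet within it, as given further on (Rsad2, Cxcl10). Capitals mark the element and, in Cxcl10 nearer the start, a Y box.
Ifit1 (chr19:34640639-34640938, plus strand): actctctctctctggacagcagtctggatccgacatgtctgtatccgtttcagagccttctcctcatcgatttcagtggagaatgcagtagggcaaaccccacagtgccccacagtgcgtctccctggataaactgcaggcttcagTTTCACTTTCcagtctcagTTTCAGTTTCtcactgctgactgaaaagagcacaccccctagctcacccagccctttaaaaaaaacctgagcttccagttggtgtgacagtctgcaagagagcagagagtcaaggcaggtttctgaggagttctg
Oas3 (chr5:120777610-120777909, minus strand): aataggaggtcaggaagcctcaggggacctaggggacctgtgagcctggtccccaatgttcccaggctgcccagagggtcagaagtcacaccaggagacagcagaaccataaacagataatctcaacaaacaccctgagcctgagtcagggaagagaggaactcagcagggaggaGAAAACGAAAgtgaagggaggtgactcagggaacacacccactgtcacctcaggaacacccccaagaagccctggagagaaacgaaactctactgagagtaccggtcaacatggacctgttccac
Rsad2 (chr12:26456403-26456702, minus strand): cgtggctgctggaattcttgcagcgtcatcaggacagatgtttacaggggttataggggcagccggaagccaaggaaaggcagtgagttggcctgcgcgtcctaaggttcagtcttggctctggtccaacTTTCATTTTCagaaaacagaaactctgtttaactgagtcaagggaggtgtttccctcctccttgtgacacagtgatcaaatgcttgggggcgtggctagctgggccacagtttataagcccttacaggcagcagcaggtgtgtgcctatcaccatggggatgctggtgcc
Cxcl10 (chr5:92348840-92349139, minus strand): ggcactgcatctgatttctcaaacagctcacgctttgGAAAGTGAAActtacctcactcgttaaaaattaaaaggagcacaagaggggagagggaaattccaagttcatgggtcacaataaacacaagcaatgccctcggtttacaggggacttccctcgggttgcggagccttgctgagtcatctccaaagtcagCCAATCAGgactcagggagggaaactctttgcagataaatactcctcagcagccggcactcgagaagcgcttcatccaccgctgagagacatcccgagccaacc
The element began 104 and 85 bases before the start of Ifit1, 75 before that of Oas3, 120 before that of Rsad2 and 213 before that of Cxcl10. Windows and build are those of the class II promoters.

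Cell-cycle genes rose in 9 and fell in 0 of 19 tested (median 2.69). Mki67, the proliferation antigen Ki-67, had 145, 33, 50.8 and 110.0 CPM in the pop3 libraries, against 9.29 to 46.4 CPM (median 21.4) in monocytes (log2 difference 1.84, SE 0.48, adjusted p = 0.00829), and pop2 averaged 6.89 ± 5.95 CPM (log2 difference 3.76, SE 0.66, adjusted p = 0.0379). Top2a, a topoisomerase of dividing cells, had 249, 67.8, 63.4 and 99.4 CPM in the pop3 libraries, against 0.233 to 8.21 CPM (median 1.14) in monocytes (log2 difference 5.89, SE 0.74, adjusted p = 6.35e-05). Pbk, a mitotic kinase, had 23, 118, 84.6 and 32.1 CPM in the pop3 libraries, against 0 to 0.38 CPM (median 0) in monocytes (log2 difference 9.59, SE 0.95, adjusted p = 4.85e-06). Pcna, a clamp of DNA replication, had 40.8, 46.7, 43.5 and 68.3 CPM in the pop3 libraries, against 33.5 to 68.9 CPM (median 56.4) in monocytes and overlapped monocytes (adjusted p = 0.905). These levels varied severalfold among the pop3 libraries, and Birc5, of the chromosomal passenger complex, had 157, 64.8, 1.78 and 89.2 CPM in them. Only 2 of the genes were called with the background covariate. The call of Mki67 was lost without pop3 CD-CD 8 against monocytes (adjusted p = 0.0577), and against pop2 in 11 of 17 fits that left out a library (up to 0.105).

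Immediate early and heat shock genes, which respond to tissue handling, rose in 2 (Egr2 and Jun) and fell in 3 (Ier2, Nfkbia and Zfp36) of 17 tested, with a median of 0.39. Egr2, a zinc finger factor, had 101, 57.1, 73.9 and 14.9 CPM in the pop3 libraries, against 0 to 6.85 CPM (median 0.253) in monocytes (log2 difference 6.55, SE 1.17, adjusted p = 0.00286). Ier2 had 59.6, 46.6, 25.1 and 13.2 CPM in the pop3 libraries, against 102 to 166 CPM (median 115) in monocytes (log2 difference -1.91, SE 0.30, adjusted p = 0.00122). With the background covariate none of this list was called (Egr2 0.0727, Ier2 0.0862, adjusted p).

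Diet altered the difference between pop3 and monocytes for 80 genes by a test of the interaction (0.659% of 12138 tested), 53 higher and 27 lower with HFD. HFD against CD gave no called gene in monocytes by edgeR (607 at an unadjusted p under 0.05), and 151 higher and 93 lower genes in pop3. The pop3 CD libraries are titled CD-CD throughout, so diet and title series cannot be told apart there. The background reads of pop3 also differed by diet, with 327 and 194 CPM on HFD and 422 and 658 CPM on CD. Their part in the diet calls was not tested. Among interferon-stimulated genes 3 of 20 were called, Ifit2, Rsad2 and Cxcl10. Ifit2, a relative of Ifit1, had 0.945, 1.48, 34.6 and 95.1 CPM in pop3, with monocyte means of 249.5 CPM on HFD and 213 CPM on CD (interaction: log2 difference -5.95, SE 0.57, adjusted p = 0.000991). Rsad2, which encodes viperin, had 11.9, 5.23, 203 and 133 CPM in pop3, with monocyte means of 304 CPM on HFD and 205 CPM on CD (interaction: log2 difference -4.86, SE 0.59, adjusted p = 0.00431). Cxcl10, a ligand of Cxcr3, had 0.945, 0.114, 37.5 and 284 CPM in pop3, with monocyte means of 256 CPM on HFD and 169 CPM on CD (interaction: log2 difference -8.81, SE 1.12, adjusted p = 0.00431). In each the HFD pop3 libraries were the lower pair. The CD pop3 libraries lay within the monocyte range of Rsad2 and below that of Ifit2, and for Cxcl10 CD-CD 7 lay below it and CD-CD 8 inside it.

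Other called list members included Il1rn, Scarb1, Msr1 and Clec4a1. Il1rn, the interleukin 1 receptor antagonist, had 175, 169, 10.7 and 1.51 CPM in pop3, with monocyte means of 93.5 CPM on HFD and 158 CPM on CD (interaction: log2 difference 5.57, SE 0.80, adjusted p = 0.0127). HFD pop3 lay within the monocyte range of 47.1 to 219 CPM and CD pop3 below it. Scarb1, a lipoprotein receptor, had 17.3, 22.5, 1.42 and 1.13 CPM in pop3, with monocyte means of 77.1 CPM on HFD and 80.4 CPM on CD (interaction: log2 difference 4.00, SE 0.65, adjusted p = 0.0163). Msr1, a class A scavenger receptor, had 316, 269.8, 493 and 795 CPM in pop3, with monocyte means of 661 CPM on HFD and 634 CPM on CD (interaction: log2 difference -1.20, SE 0.24, adjusted p = 0.0454), with HFD pop3 below CD pop3. The calls of Scarb1, Msr1 and Clec4a1 were lost without single libraries (adjusted p up to 0.0576, 0.11 and 0.073). Outside the lists, and chosen after their values were seen, Slfn1, a Schlafen gene, had 29.4, 28.3, 3.55 and 1.89 CPM in pop3, with monocyte means of 619.6 CPM on HFD and 653 CPM on CD (interaction: log2 difference 3.47, SE 0.26, adjusted p = 7.86e-05). Cd244, the SLAM family receptor 2B4, had 104, 47.2, 1.07 and 2.45 CPM in pop3, with monocyte means of 378 CPM on HFD and 364 CPM on CD (interaction: log2 difference 5.36, SE 0.57, adjusted p = 0.00127). Both were higher in HFD pop3 than in CD pop3 and below monocytes on either diet. The number of called interactions ranged from 38 without mono HFD 1 to 389 without pop3 HFD 3, with 264 without pop3 CD-CD 7 and 139 without pop3 CD-CD 8.

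**Figure D5:**
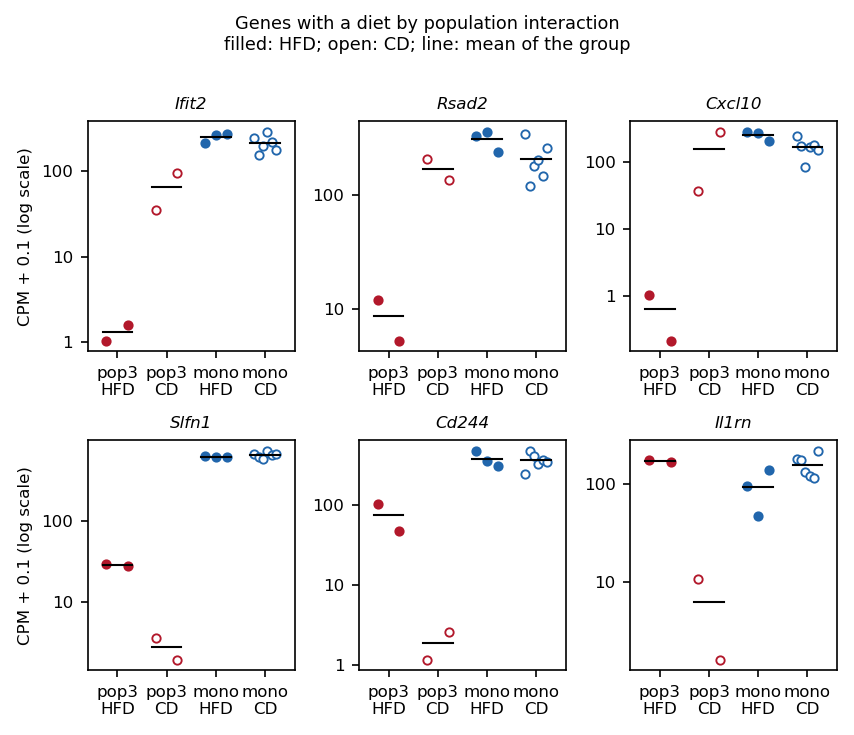
Levels of Ifit2, Rsad2, Cxcl10, Slfn1, Cd244 and Il1rn by population and diet (CPM plus 0.1, log scale), pop3 HFD and CD beside monocyte HFD and CD. Each point is a library and the line is the group mean. The pop3 points split by diet, with Cxcl10 at most 0.945 CPM on HFD and 37.5 and 284 CPM on CD, while the monocyte points of both diets overlap.

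Markers of other cell types moved with the comparison. Adipocyte markers summed to 386 to 844 CPM in pop3, against 13.2 to 33.6 CPM in monocytes, with 4 of 5 tested higher (Adipoq, Car3, Fabp4 and Plin4). Adipoq, adiponectin, had 28.2, 101, 14.7 and 104 CPM in the pop3 libraries, against 0 to 0.385 CPM (median 0) in monocytes (log2 difference 9.23, SE 1.03, adjusted p = 1.39e-05). Stromal markers summed to 235 to 1620.0 CPM against 62.1 to 141 CPM, with 6 of 7 higher and 1 lower. Endothelial markers summed to 42.1 to 153 CPM against 2.44 to 67.8 CPM, and 2 of 5 were higher (Cdh5 and Ptprb). Of mesothelial markers none could be tested, and they summed to 4.32 to 42.9 CPM in pop3 against 0.233 to 3.59 CPM in monocytes. Among blood-borne contents, red cell and NK cell markers ran the other way, the latter with overlap. T cell and B cell sums overlapped between the groups, and platelet sums were higher in pop3. Red cell markers summed to 44.2 to 556 CPM in pop3 against 723 to 2460.0 CPM in monocytes, and 9 of 11 fell, against 2 with the background covariate and 2 in the HFD libraries alone. NK cell markers summed to 2.95 to 24.7 CPM against 7.72 to 290.0 CPM (1 of 3 lower, Nkg7). T cell markers summed to 35 to 176 CPM against 0.755 to 245 CPM, with 1 higher (Cd28) and 2 lower (Cd3d and Cd3g) of 7.

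B cell markers summed to 24.5 to 97.6 CPM in pop3 against 5.98 to 123 CPM in monocytes (1 of 2 higher, Cd79a), and eosinophil and mast cell markers to 2.67 to 92.1 CPM against 0.931 to 25 CPM (0 of 1 called). Platelet markers summed to 588 to 987 CPM against 163 to 569 CPM. Pf4, which macrophages also make, had 527, 554, 846 and 757 CPM in the pop3 libraries, against 35.1 to 130.1 CPM (median 87.3) in monocytes and was the member that rose (log2 difference 3.06, SE 0.34, adjusted p = 1.05e-05), while Clec1b, Gp1bb and Gp9 fell. Neutrophil granule genes rose in 2 (Mmp9 and Retnlg) and fell in 4 (Csf3r, Ctsg, Prtn3 and Trem3) of 9 tested, with sums of 66.4 to 269 CPM in pop3 and 219 to 742 CPM in monocytes. Mmp9, a gelatinase, had 31.9, 94.9, 254 and 144 CPM in the pop3 libraries, against 0 to 1.13 CPM (median 0.352) in monocytes (log2 difference 7.97, SE 0.66, adjusted p = 1.41e-06). Dendritic cell markers rose in 4 (Batf3, Cd1d1, Kit and Siglech) and fell in 4 (Btla, Clec9a, Dpp4 and Flt3) of 15, with sums of 1010.0 to 1500.0 CPM in pop3 and 1220.0 to 2060.0 CPM in monocytes. Btla, an inhibitory receptor of lymphocytes, had 0.236, 0.909, 1.6 and 2.64 CPM in the pop3 libraries, against 155 to 339.7 CPM (median 261) in monocytes (log2 difference -7.51, SE 0.30, adjusted p = 5.53e-09). With the background covariate no dendritic cell marker was higher and 3 were lower, 1 platelet marker was lower, 1 endothelial marker was higher, and the calls of Cd3d, Cd3g, Nkg7 and Cd79a were lost. Calls lost on leaving out single libraries were those of Siglech (in 12 of 13 such fits, adjusted p up to 0.112), Ctsg (8 of 13, up to 0.122), Gp1bb (up to 0.0646), Cd79a (adjusted p up to 0.239), Cd3d (0.104), Cd3g (0.109), Ptprb (0.072), Gp9 (0.0612) and, above, Jun (0.0899) and Apoc1 (0.0711). Of all these lists, 1 gene had no read in any pop3 library (an eosinophil or mast cell marker) and every gene had reads in monocytes. The part that RNA of these cell types takes in the differences between pop3 and monocytes was not tested.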

How the data were processed

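The data are the deposited raw read counts of the authors for 24537 gene models on mm10 (20712 protein-coding, 394 with more than 1 copy). Per the submitters' processing notes, STAR 2.5.3a and HOMER were used. Strand, duplicates, multi-mapped reads and the annotation version are not given in the sources used here, so overlapping, antisense and near-identical genes (Ly6, H2, Klr, Cd209 and haemoglobin genes among them) are uncertain.

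Groups follow the labels. Counts entered edgeR 4.0.16 (R 4.3.3, limma 3.58.1) as deposited, with TMM factors from 16961 genes of all 25 libraries, filterByExpr by population, robust quasi-likelihood F tests with diet as covariate, and Benjamini-Hochberg adjustment at 0.05. Pop3 against monocytes used 13 libraries (10 residual degrees of freedom), and pop2 contrasts and classes used 17 (13). Intervals are 95% Wald intervals. Log2 differences of genes near 0 in a group depend on the prior count, and none is given where a group held at most 3 counts in all, the floor used here (0.106 CPM over pop3, 0.0423 CPM over monocytes). Floors and counts cover counting error only, and no molecular identifiers are described. The fits were tested on simulated counts. Promoters were matched by symbol for 414 of 563 list and named genes.

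Named genes are the given markers, the 8 highest and 8 lowest separated differences with at least 50 CPM, the leading genes of each class with at least 20 CPM, and up to 4 of each list (the 3 with the smallest p and those a count needs); a few genes that the rule names are not reported here. Members and lists were chosen with earlier results of these data known. Genes named beyond this rule, such as Plaur, Asap1, Klra2, Klrk1, Irgm1, Csf1r, Adgre1, Ccl2, Tlr7, Usp18, Slfn1 and Cd244, were chosen after their values were seen. Alternatives were scaling, filter, covariates, DESeq2 1.42.0, library subsets and leaving out each library. The wide monocyte-like class, factors from 13 libraries, the unblocked fit of 8 libraries and the fits of pop3 and pop2 alone were added after seeing the data.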

Additional observations from a re-analysis of the deposited data

Results flagged for a closer look

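For 166 named genes, each group was examined for a library apart from the others, by the gap to its neighbour over the whole range of log2 (CPM + 1). Of 298 gene and group pairs, 19 held such a library, 8 in pop3 and 11 in monocytes, and chance gives about 1 in 20. In pop3 a library stood above the others of its group for Ccl5 in CD-CD 8 (8.11 CPM, against 0 to 0.455 CPM), Chil3 in HFD 2 (8.51 CPM, against 0.568 to 1.13 CPM), Clec1b in CD-CD 8 (1.32 CPM, against 0 to 0.118 CPM) and Il10 in CD-CD 8 (1.89 CPM, against 0.236 to 0.355 CPM). The same held for Timd4 in CD-CD 8 (11.9 CPM, against 0.118 to 0.568 CPM). A pop3 library stood below its group for Cxcl12 in HFD 2 (42.3 CPM, against 236 to 313 CPM), Igf1 in HFD 2 (1146 CPM, against 1537 to 1611 CPM) and Usp18 in CD-CD 7 (7.46 CPM, against 49.6 to 71.1 CPM). In monocytes a library stood above the rest for Apoc1 in CD 1 (40.1 CPM, against 17.3 to 24.2 CPM), Ccl8 in CD 1 (1.87 CPM, against 0 to 0.513 CPM), Ctss in HFD 2 (1332 CPM, against 972 to 1137 CPM) and Folr2 in CD 2 (5.79 CPM, against 0.116 to 0.513 CPM). The same held for Il6 in CD 3 (5.93 CPM, against 0 to 0.249 CPM), Ly6c2 in HFD 2 (673 CPM, against 434 to 539.5 CPM), Siglech in CD-CD 8 (29.5 CPM, against 0.116 to 4.13 CPM) and Spi1 in CD 2 (339 CPM, against 168 to 237 CPM). A monocyte library stood below the rest for Alcam in CD-CD 7 (171 CPM, against 274 to 360.1 CPM), Prtn3 in CD-CD 6 (0.251 CPM, against 12.7 to 104 CPM) and Usp18 in HFD 2 (157 CPM, against 242 to 342 CPM).

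The difference of pop3 and monocytes changed with diet past the threshold of the interaction test for 10 named genes. On the log2 scale, HFD minus CD of that difference was positive for Il1rn 5.57, Cd244 5.36, Scarb1 4.00, Slfn1 3.47 and Plaur 1.71. It was negative for Cxcl10 -8.81, Ifit2 -5.95, Rsad2 -4.86, Msr1 -1.20 and Clec4a1 -1.06.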

How the results depend on the processing

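Genes higher in pop3 than in monocytes numbered 1272 and genes lower 1674. Without a filter on low counts 2822 were higher, with DESeq2 1971, and with all 25 libraries in 1 fit 2357, while the lower counts stayed within 1.5 times (1611, 1789 and 1653). DESeq2 gave 384 of 12138 genes no adjusted p. The HFD libraries alone gave 341 higher and 474 lower genes, and the background covariate 382 and 622. Leaving out a library in turn gave 1053 to 1234 higher and 1481 to 1642 lower. Between pop3 and pop2, 28 genes were higher and 5 lower. The counts were 16 higher without the HFD libraries of pop2, 106 higher and 17 lower with pop1 and pop2 averaged in place of pop2, and 21 to 102 higher and 3 to 11 lower with a library left out. The 6 monocyte-like genes were 10 with pop1 and pop2 averaged, 327 by the wide definition and 2 to 25 with a library left out. The 543 resident-like genes were 941 at an interval bound of 1.5 and 349 to 606 with a library left out. Interaction calls ranged from 38 to 389 around 80. The cause of these shifts was not tested.

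Replicate numbers are shared by 4 pop3, 4 monocyte and 4 pop2 libraries. The correlations of the deviations of same-numbered libraries were 0.00769, -0.0129, 0.032 and -0.00836 between pop3 and monocytes, and 0.0161 (CD) and -0.00103 (HFD) between pop3 and pop2. With 2 pop3 libraries a diet these values mirror each other and say little, and the numbers were not taken to pair samples. With a replicate block the 8 numbered pop3 and monocyte libraries gave 475 higher and 578 lower genes, against 725 and 838 in the same libraries with diet and no replicate block. For the pop3 and pop2 libraries alone, a replicate block gave 0 higher and 0 lower genes (11511 tested, 696 at an unadjusted p under 0.05), and no replicate block, with diet, also 0 and 0 (853). The calls between pop3 and pop2, and the monocyte-like genes, thus depend on fitting monocytes too.

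Over 177 genes examined, 4258 gene results of pop3 against monocytes kept their side of the threshold, 275 lost the call and 19 gained one. None changed direction where either fit had a call. Changes of sign in genes called in neither fit, such as Cd209a with RLE factors, are among the 4258. The settings with the most lost calls were the HFD libraries alone (51) and the background covariate (43). With 4 pop3 libraries of 200 cells each, genes read in few of those cells are poorly resolved.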
